A study of Mus musculus with 23 samples.

Results

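The expression of 10 genes of the ATF4 axis and of serine, one-carbon and asparagine synthesis was followed in flow sorted lung tumor cells of mice. The genes were taken by symbol from both deposited tables of normalized counts, and 10 of 10 were found in each table, 1 of which holds the tumors with and without mutant PI3K and the other the tumors with 1 or no copy of PGC1a. The genes are *Atf4*, *Ddit3*, *Trib3* and *Chac1*, *Asns*, *Phgdh*, *Psat1* and *Psph*, and *Shmt2* and *Mthfd2*.

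ATF4 is a transcription factor whose protein is made when phosphorylation of the translation factor eIF2 slows the translation of most other mRNAs, and its synthesis is also raised by mTORC1, the kinase complex that senses nutrients and growth factors. Loss of mitochondrial function is a known trigger of the same response in mammalian cells. Much of this control acts on translation and protein stability, which RNA levels do not measure. DDIT3 (CHOP) is a partner and later effector of ATF4, TRIB3 is a pseudokinase induced by both, and CHAC1 degrades glutathione. ASNS makes asparagine from aspartate, PHGDH, PSAT1 and PSPH are the successive enzymes that make serine from a glycolytic intermediate, and SHMT2 and MTHFD2 pass the serine carbon into the mitochondrial folate pathway.

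All mice were 3 to 4 months old, on a mixed C57BL/6, 129 and FVB background, and carried 1 Braf CAT allele, which gives BRAF V600E together with the fluorescent protein tdTomato after recombination. Cre recombinase came from an adenovirus driven by the *Sftpc* promoter, which directs it to alveolar type 2 (AT2) cells, the surfactant-producing cells of the lung, and tdTomato+ cells were sorted at the named week. BRAF tumors carried no other engineered allele (1, 3 and 2 libraries at 2, 6 and 12 weeks), and BRAF/PI3K tumors also carried the Pik3ca HR allele, which gives PIK3CA H1047R (2, 4 and 2 libraries). BRAF/PGC1a Het and BRAF/PGC1a Null tumors carried 1 or 2 floxed copies of *Ppargc1a*, the gene for the mitochondrial coactivator PGC1a (5 and 4 libraries, all at 12 weeks). The mice sampled at 2 and 6 weeks received more virus than those sampled at 12 weeks, so in comparisons with 12 weeks the week and the viral titer cannot be told apart.

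The 2 tables were normalized separately, and no value was compared between them. Library sums were 1.64e+07 to 2.03e+07 normalized counts with PI3K and 7.12e+06 to 9.16e+06 with PGC1a. The 15 AT2 markers were all present, none at 0 throughout a genotype, and their sums were lower at 2 weeks with PI3K (92025 and 189678) than in the other 12 libraries of that table (360187 to 1634010). *Ppargc1a* was at 75.8 to 561 in the Het and 38.0 to 124 in the Null libraries. At 12 weeks the Y-linked gene *Kdm5d* went against the label of both BRAF/PI3K libraries (502 in the one labelled male, 4728 in the one labelled female). In bulk cells, fewer cells with a transcript and less transcript per cell cannot be told apart.

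The 3 promoter stretches shown here hold the composite C/EBP-ATF element, the letters through which ATF4 and its C/EBP partners are known to act. They come from RefSeq (GRCm38.p6), in which all 10 genes had an entry. The searched window ran from 250 bases before to 50 bases after the start site, which is counted as 0. Capitals mark the element, TGATGNAA or its reverse complement TTNCATCA.

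Asns (chr6:7693195-7693262, minus strand, element at -23 to -16): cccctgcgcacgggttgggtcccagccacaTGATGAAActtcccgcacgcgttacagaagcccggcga

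Chac1 (chr2:119351019-119351086, plus strand, element at -193 to -186): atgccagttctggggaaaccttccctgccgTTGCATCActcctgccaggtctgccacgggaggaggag

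Trib3 (chr2:152344011-152344076, minus strand, element at 14 to 21): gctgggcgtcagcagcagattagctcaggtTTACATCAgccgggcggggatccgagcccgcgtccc

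The element was in the windows of 3 of the 10 genes and in 3.97% of the 32817 windows searched. The E-box CACGTG was in 0 of the 10 and in 7.15% of all windows, and the cAMP response element TGACGTCA in 0 of the 10 and in 1.79%. Both strands were searched, and a match is a description of the sequence alone. Of the genes themselves, *Phgdh* (chromosome 3, 98313170 to 98339990, minus strand, GRCm38) shared 56.3% of its 31-base transcript stretches with other annotated genes, chiefly the pseudogene *Gm7901* (44.8%). *Gm7901* was listed at 0 in all 14 libraries with PI3K and in 6 of the 9 with PGC1a, but the 19 sharing genes in the tables summed to 3.27 to 35.6 normalized counts with PI3K and to 52.5 to 263 with PGC1a, chiefly from *Vmn2r-ps54* (up to 222), where *Phgdh* itself had 45 to 134. Reads shared between copies cannot be assigned with certainty, so *Phgdh* values are uncertain. *Psph* shared 9.79% of its stretches, nearly all with *Cct6a* on the opposite strand, and *Ddit3* shared 2.4%, chiefly with *Mars*, also on the opposite strand.

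*Chac1*, whose product degrades glutathione, was low at 2 weeks and higher in every library at 6 weeks. At 2 weeks *Chac1* had 1.15 normalized counts in the BRAF library and 17.2 and 4.83 in the BRAF/PI3K libraries. At 6 weeks it had 24.8, 37.0 and 39.5 in the BRAF libraries and 129, 71.6, 23.2 and 55.3 in the BRAF/PI3K libraries. The weeks did not overlap in either genotype, and the 4 libraries at 12 weeks (74.2 and 38.1 for BRAF, 45 and 41.8 for BRAF/PI3K) lay within the 6 week range. Over both genotypes the log2 difference between 6 and 2 weeks was 3.26 ± 0.60 (SE, limma, unadjusted p = 0.000138), and the Benjamini-Hochberg adjusted p over all genes was 0.0974, so *Chac1* was not called. With 4 added to each normalized count in place of 1, the log2 difference was 2.53 (limma, adjusted p = 0.168). *Chac1* was the only one of the 10 genes whose 7 libraries at 6 weeks and 3 at 2 weeks did not overlap, as was the case for 3.09% of the 17558 genes tested. Without the BRAF/PI3K 6 weeks replicate 1 library, which held the highest value, the log2 difference was 3.08 and the adjusted p was 0.0412.

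**Figure D1:**
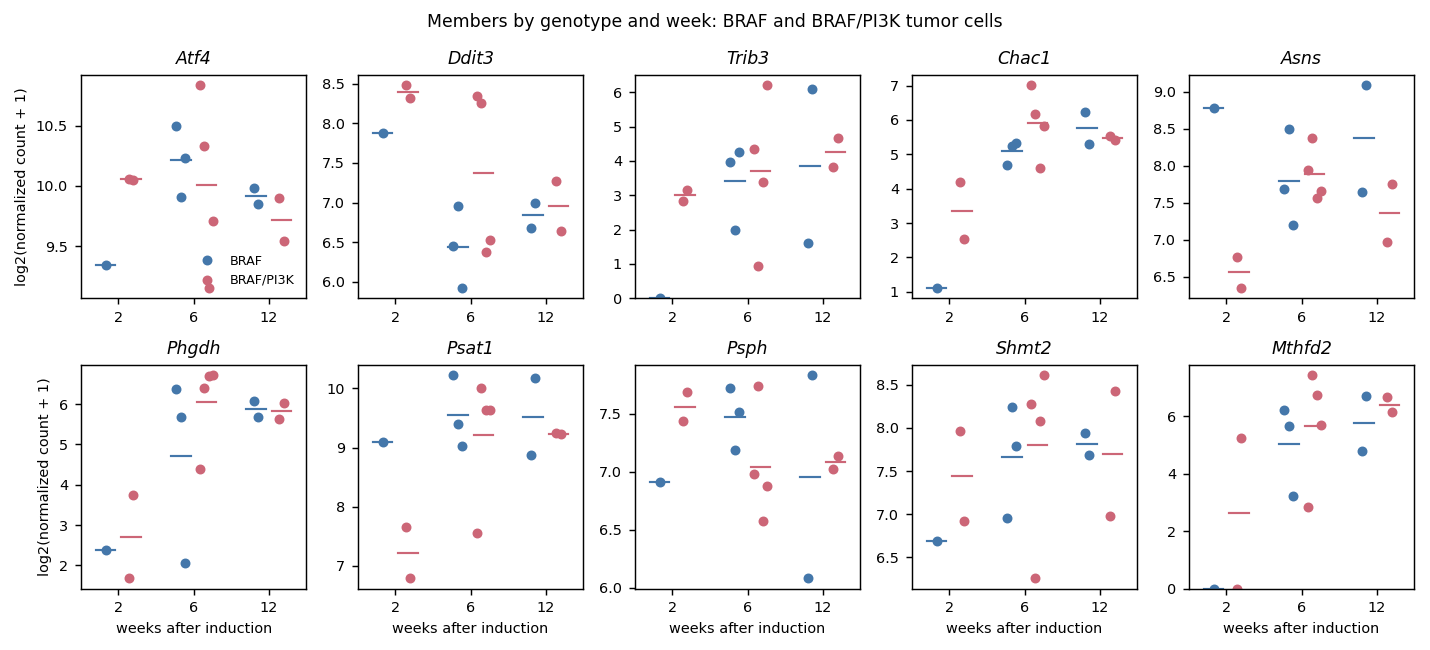
Expression of each of the 10 genes, as log2(normalized count + 1) on the vertical axis, by week after induction on the horizontal axis. Each point is 1 library (blue, BRAF; red, BRAF/PI3K) and each line is a group mean. For *Chac1* the 7 libraries at 6 weeks all lie above the 3 at 2 weeks, while for *Asns* the 2 BRAF/PI3K libraries lie below the BRAF library at 2 weeks.

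*Phgdh*, the first enzyme of serine synthesis, and *Mthfd2*, at the folate end of the route, were also higher in most libraries at 6 weeks. *Phgdh* had 4.25 normalized counts in the BRAF library at 2 weeks and 2.19 and 12.4 in the BRAF/PI3K libraries, against 82.9, 50.4 and 3.15 for BRAF and 20, 83.4, 103 and 105 for BRAF/PI3K at 6 weeks. *Mthfd2* was listed at 0 in the BRAF library and had 0 and 36.8 in the BRAF/PI3K libraries at 2 weeks, against 74.4, 49.2 and 8.29 for BRAF and 6.11, 171, 107 and 51.1 for BRAF/PI3K at 6 weeks. At 6 weeks BRAF replicate 3 (both genes) and BRAF/PI3K replicate 1 (*Mthfd2*) lay in the range of the 2 week libraries, and the others lay above it. The log2 differences were 2.83 ± 0.93 for *Phgdh* (SE, limma, adjusted p = 0.332) and 4.05 ± 1.25 for *Mthfd2* (adjusted p = 0.3). Differences of low genes are understated on this scale, log2(normalized count + 1). Both sizes depend on values near 0, where the added count of 1 sets the scale, and with 4 added in place of 1 they were 2.39 and 2.69.

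*Psat1*, the second serine enzyme, had 545 normalized counts in the BRAF library and 199 and 109 in the BRAF/PI3K libraries at 2 weeks. At 6 weeks it had 1199, 676 and 518 in the BRAF libraries and 187, 1027, 792 and 792 in the BRAF/PI3K libraries. The log2 difference between 6 and 2 weeks was 1.22 ± 0.53 (SE, limma, unadjusted p = 0.0392, adjusted p = 0.455). In both genotypes 1 library at 6 weeks was as low as those at 2 weeks. *Psph*, the last serine enzyme, overlapped between the weeks, with 120 to 205 normalized counts at 2 weeks, 94.1 to 212 at 6 weeks and a log2 difference of 0.02 ± 0.41. *Shmt2* had 102 to 249 and 75.5 to 391 normalized counts, with a log2 difference of 0.67 ± 0.55.

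*Ddit3* was the gene of the 10 that was lower at 6 than at 2 weeks. It had 233 normalized counts in the BRAF library and 357 and 317 in the BRAF/PI3K libraries at 2 weeks, against 87.0, 123 and 59.6 for BRAF and 324, 305, 82.2 and 91.0 for BRAF/PI3K at 6 weeks. The 3 BRAF libraries and replicates 3 and 4 of BRAF/PI3K lay below all 2 week libraries, and replicates 1 and 2 of BRAF/PI3K did not. The log2 difference was -1.23 ± 0.49 (SE, limma, unadjusted p = 0.0280, adjusted p = 0.429). *Atf4* itself had 648, 1067 and 1057 normalized counts at 2 weeks and 567 to 1835 at 6 weeks, with a log2 difference of 0.41 ± 0.33. *Trib3* was listed at 0 in the BRAF library at 2 weeks, had 6.13 and 7.92 in the BRAF/PI3K libraries, and ranged from 0.902 to 72.6 at 6 weeks.

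Across the 10 genes, 9 had a positive difference between 6 and 2 weeks, with a median of 0.95 on the log2 scale, where the median over all genes was 0.02 and 51.9% were positive. None was called at an adjusted p under 0.05, against 0.0399% of all genes (7 of 17558). At an unadjusted p under 0.05, 4 of 10 were higher (*Chac1*, *Mthfd2*, *Phgdh* and *Psat1*) and 1 of 10 was lower (*Ddit3*), against 5.89% and 4.47% of all genes. The BRAF arm at 2 weeks was 1 library, labelled female, and both BRAF/PI3K libraries were labelled male. Several lists moved in the same comparison. All 20 cell cycle genes were higher at 6 weeks, 14 with an unadjusted p under 0.05, with sums of 2614 to 3505 at 2 weeks and 3547 to 8993 at 6 weeks. The 15 AT2 markers were all higher, 14 with an unadjusted p under 0.05 (sums of 92025 to 849947 and 360187 to 1323230). Of 12 markers of alveolar type 1 cells, the thin gas-exchange cells, 8 were lower with an unadjusted p under 0.05 (sums of 154370 to 231361 and 76772 to 183766). Of 8 club and ciliated cell markers, 7 were higher, 4 with an unadjusted p under 0.05 (median log2 difference 1.55), and of 12 lymphocyte markers 9 were higher, 4 with an unadjusted p under 0.05 (median 1.00). Of 14 macrophage markers, 2 were higher and 1 lower at that threshold. The part of these lists in the differences of the 10 genes was not tested. Within BRAF/PI3K the log2 differences were 2.54 ± 0.72 for *Chac1*, 3.34 ± 1.11 for *Phgdh*, 3.06 ± 1.5 for *Mthfd2* and 1.99 ± 0.64 for *Psat1* (SE, limma, adjusted p of 0.193 to 0.403), and within BRAF, against its 1 library, 3.99 ± 0.96, 2.32 ± 1.48, 5.03 ± 2.00 and 0.46 ± 0.85. *Asns* had 1.32 ± 0.49 within BRAF/PI3K (SE, limma, unadjusted p = 0.0193, adjusted p = 0.298) and -0.99 ± 0.66 within BRAF. Marker values within each genotype stand beside these, with no test of a difference between genotypes. The 15 endothelial markers were all lower at 6 weeks within BRAF/PI3K (median log2 difference -1.13, 1 with an unadjusted p under 0.05), and 14 of 15 were higher within BRAF (median 1.71, 1 with an unadjusted p under 0.05). The AT2 markers had medians of 2.29 within BRAF/PI3K, where 13 of 15 were higher with an unadjusted p under 0.05, and 0.33 within BRAF, where 2 were. The cell cycle genes had medians of 0.89 within BRAF/PI3K (18 of 20 higher) and 2.38 within BRAF (17 of 20 higher). The alveolar type 1 markers had medians of -1.19 within BRAF/PI3K (10 of 12 lower) and -0.84 within BRAF (11 of 12 lower). The part of these lists in the *Asns* values and the other values within each genotype was not tested.

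**Figure D2:**
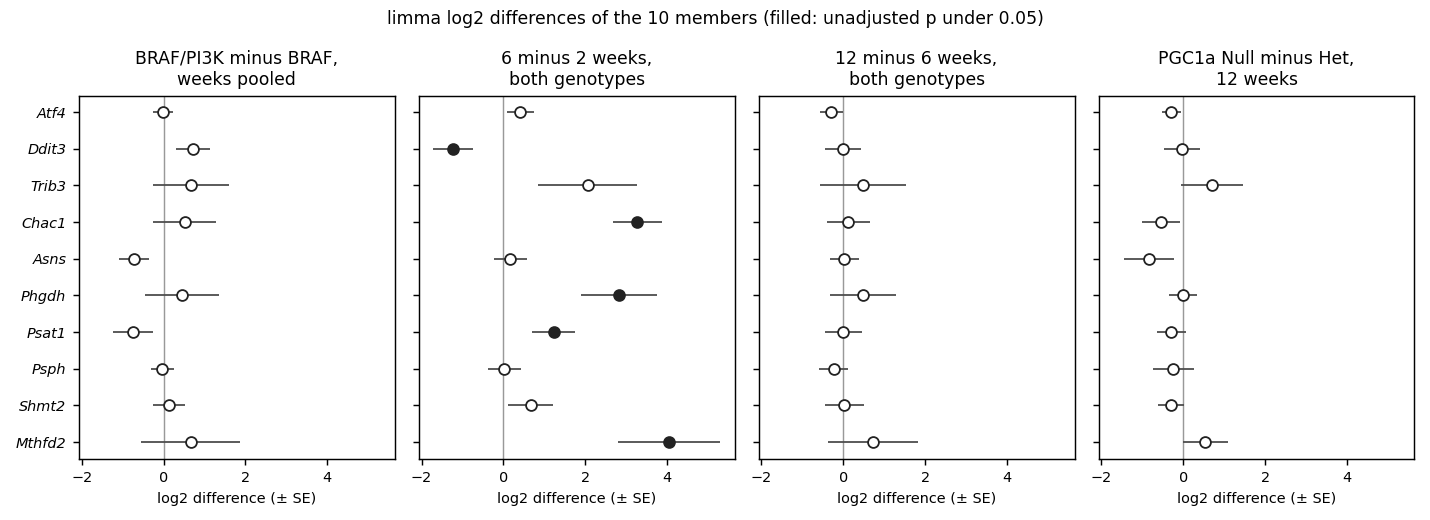
The limma log2 difference of each of the 10 genes with its standard error, in 4 comparisons that share 1 horizontal scale. Filled points have an unadjusted p under 0.05, as 5 genes have between 6 and 2 weeks and none in the other 3 comparisons, and no gene passed the adjusted threshold.

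Between 6 and 12 weeks the 10 genes differed by less than the spread between libraries. The log2 differences ran from -0.29 (*Atf4*) to 0.72 (*Mthfd2*), with a median of 0.02, and 7 of the 10 were positive. None passed an adjusted p under 0.05 (0.0114% of all genes did, 2 of 17558) and none had an unadjusted p under 0.05 (5.99% of all genes). *Phgdh* was at 67.0 and 50.5 normalized counts for BRAF and 48.2 and 64.4 for BRAF/PI3K at 12 weeks. *Mthfd2* was at 26.7 and 104 for BRAF and 101 and 69.9 for BRAF/PI3K. All 4 libraries lay above the 2 week range for *Phgdh*, and 3 of the 4 did for *Mthfd2*.

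The comparison of BRAF/PI3K with BRAF asks what a PI3K mutation adds to a BRAF tumor, and with all weeks together it gave no call for any of the 10 genes. Their log2 differences had a median of 0.29 (all genes 0.02), and 6 of 10 were positive. By limma, 0 of 10 passed an adjusted p under 0.05 (0.0228% of all genes, 4 of 17558) and 0 of 10 an unadjusted p under 0.05 (6.83% of all genes). In 0 of 10 did the 8 BRAF/PI3K libraries lie apart from the 6 BRAF libraries, which was the case for 0.211% of all genes. Leaving out both BRAF/PI3K libraries at 12 weeks, whose *Kdm5d* went against their labels, gave 0 of 10 as well. Leaving out the 3 libraries at 2 weeks did so too. With all weeks together, 15 of 15 endothelial and 14 of 14 macrophage markers were higher with PI3K, 3 each with an unadjusted p under 0.05. Of 15 AT2 markers 14 were lower, 4 at that threshold, and 6 of 6 erythroid markers were lower, 2 at that threshold. The part of these lists in the differences of the 10 genes was not tested.

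*Asns*, the asparagine synthetase, came nearest to a difference. It ranged from 146 to 545 normalized counts (median 282) over the 6 BRAF libraries and from 80.2 to 329 (median 194) over the 8 BRAF/PI3K libraries. The means were 315 ± 158 (SD, n = 6) and 186 ± 81.1 (SD, n = 8), and a two-sided exact permutation of the genotype labels gave p = 0.0796. Here and for the other genes the labels were moved freely between weeks, so libraries of different weeks were treated alike. Only 1 of the 8 BRAF/PI3K libraries lay above the BRAF median, and 3 lay below all BRAF libraries. The log2 difference was -0.73 ± 0.36 (SE, limma, adjusted p = 0.730), and without the 3 libraries at 2 weeks it was -0.31.

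At 2 weeks *Asns* had 439 normalized counts in the BRAF library and 108 and 80.2 in the BRAF/PI3K libraries, a log2 difference of -2.23 ± 0.70 (SE, limma, unadjusted p = 0.00749, adjusted p = 0.198). The BRAF group at 2 weeks is 1 library with no spread of its own, so this error and p assume that it varies like the other groups, and it was labelled female where both BRAF/PI3K libraries were labelled male, so at 2 weeks the genotypes and the sexes cannot be told apart. At 6 weeks the BRAF libraries had 204, 359 and 146 and the BRAF/PI3K libraries 244, 329, 187 and 201, which overlapped (log2 difference 0.09 ± 0.43). At 12 weeks BRAF had 198 and 545 and BRAF/PI3K 124 and 215 (-1.01 ± 0.57). This difference was -1.73 without BRAF 12 weeks replicate 1 and -0.28 without BRAF 12 weeks replicate 2. The difference at 6 weeks exceeded that at 2 weeks by 2.32 ± 0.82 on the log2 scale (SE, limma, unadjusted p = 0.0151, adjusted p = 0.461), a value that rests on the same 1 BRAF library. The difference at 12 weeks was below that at 6 weeks (-1.10 ± 0.71, limma, adjusted p = 1, and -1.82 and -0.37 without BRAF 12 weeks replicates 1 and 2). For this change in the PI3K difference from 2 to 6 weeks, 1 of the 10 genes was higher at an unadjusted p under 0.05 (4.28% of all genes), and 0 of 10 passed the adjusted threshold (0% of all genes). From 6 to 12 weeks, 0 of 10 had an unadjusted p under 0.05 (2.87% of all genes) and 0 of 10 passed the adjusted threshold (0% of all genes).

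*Psat1* had a mean of 761 ± 332 normalized counts in BRAF (SD, n = 6) and 539 ± 338 in BRAF/PI3K (SD, n = 8), with an exact permutation p of 0.190. *Ddit3* had 122 ± 59.8 and 216 ± 120, with an exact permutation p of 0.130. Both genes overlapped between genotypes, and 4 of the 8 BRAF/PI3K libraries, 2 at 2 weeks and 2 at 6 weeks, lay above all BRAF libraries for *Ddit3*. *Atf4* had 1033 ± 271 in BRAF and 1044 ± 389 in BRAF/PI3K, with an exact permutation p of 0.930. *Trib3*, *Chac1*, *Phgdh*, *Psph*, *Shmt2* and *Mthfd2* gave exact permutation p values of 0.501 to 0.922.

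By week, at 2 weeks 1 of the 10 genes was higher with PI3K at an unadjusted p under 0.05 (*Chac1*, log2 difference 2.26 ± 1.02 by limma, adjusted p = 0.360, against the 1 BRAF library), beside 6.93% of all genes. The *Chac1* value depends on the added count of 1, and with 4 added in place of 1 it did not pass that threshold. *Asns* was the 1 of 10 that was lower, against 6.57% of all genes. None of the 10 passed the adjusted threshold at 2 weeks (0.0171% of all genes). *Psat1* had a log2 difference of -1.88 at 2 weeks, with an adjusted p of 0.391 by limma. The 15 endothelial markers were all higher at 2 weeks with PI3K, 13 of them with an unadjusted p under 0.05 (sums of 16059 in the BRAF library and 134632 and 139764 in the BRAF/PI3K libraries). Of 15 AT2 markers, 12 were lower with an unadjusted p under 0.05 and 1, *Lyz1*, was higher (log2 difference 3.75 ± 1.64, SE, limma, adjusted p = 0.346), with sums of 849947 in the BRAF library and 189678 and 92025 in the BRAF/PI3K libraries. Of 14 macrophage and 14 fibroblast markers, 13 each were higher, 3 each with an unadjusted p under 0.05. The part of these lists in the values of *Asns*, *Chac1* and the other genes at 2 weeks was not tested. At 6 weeks 0 of 10 passed an adjusted p under 0.05 (0.0228% of all genes) and 0 of 10 an unadjusted p under 0.05 (4.24%). At 12 weeks 0 of 10 passed either, where 0.0114% and 3.76% of all genes did.

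Deletion of *Ppargc1a* was compared at 12 weeks, which bears on whether loss of a mitochondrial coactivator moves the mitochondrial stress genes. None of the 10 genes differed beyond the spread between libraries. By limma 0 of 10 passed an adjusted p under 0.05, as did 0% of the 17424 genes tested, and 0 of 10 had an unadjusted p under 0.05, against 3.83% of all genes. In 0 of 10 did the 4 Null libraries lie apart from the 5 Het libraries, against 1.4% of all genes. The median log2 difference was -0.27 (all genes 0.01), and 2 of 10 were positive.

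*Asns* had 155, 191, 272, 335 and 214 normalized counts in the Het libraries and 146, 293, 258 and 21.9 in the Null libraries. Null replicate 4 was far below the rest, and the other 3 lay within or near the Het range. The means were 233 ± 70.9 (SD, n = 5) and 180 ± 123 (SD, n = 4), with a two-sided exact permutation p of 0.357. The log2 difference of -0.84 ± 0.61 became -0.02 without Null replicate 4.

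*Atf4* had 873, 1227, 954, 933 and 1246 normalized counts in the Het libraries and 760, 1113, 1005 and 601 in the Null libraries (exact permutation p = 0.230). Null replicates 1 and 4 were the 2 lowest of all 9 libraries. *Chac1* had 29.5 to 65.1 in the Het and 13.3 to 53.5 in the Null libraries (exact permutation p = 0.286), and *Ddit3* 84.5 to 293 and 77.7 to 295 (exact permutation p = 0.921). *Trib3* was at 2.06 in Het replicate 5 and at 18.4 to 58.0 in the other 8 libraries. Of the folate enzymes, *Mthfd2* had means of 67.7 ± 47.9 in Het (SD, n = 5) and 87.5 ± 36.9 in Null (SD, n = 4), and *Shmt2* had 177 ± 52.8 and 141 ± 34.9. The serine enzymes overlapped as well, with *Phgdh* at 80.5 to 120 in Het and 45 to 134 in Null, *Psat1* at 409 to 892 and 329 to 951, and *Psph* at 21.8 to 146 and 45.7 to 78.8.

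**Figure D3:**
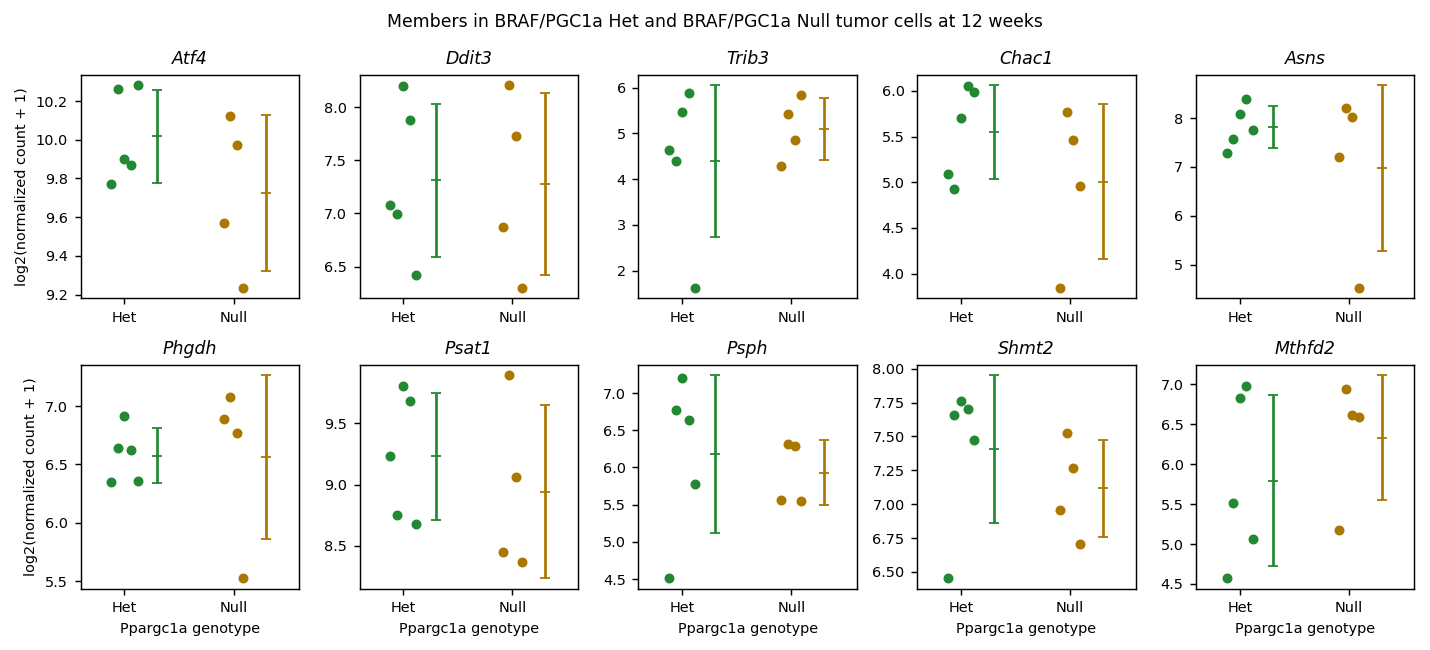
Expression of the 10 genes as log2(normalized count + 1) in the 5 BRAF/PGC1a Het (green) and 4 BRAF/PGC1a Null (ochre) libraries at 12 weeks. Points are libraries, and the bar beside each group is the mean with its standard deviation. The groups overlap for every gene, and the lowest *Asns* point is Null replicate 4, at 21.9 normalized counts.

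Markers of other cells moved with the Null genotype. The 7 club and ciliated cell markers tested, of the conducting airways, were all higher, 4 with an unadjusted p under 0.05, with a median log2 difference of 2.53 and sums of 1310 to 3195 in Het and 4128 to 18116 in Null (10 markers). Of 14 endothelial markers tested, 14 were higher in the Null libraries and 11 had an unadjusted p under 0.05, with sums of 995 to 1495 in Het and 2265 to 3262 in Null. Of 13 fibroblast and 14 macrophage markers, 7 each were higher with an unadjusted p under 0.05 (fibroblast sums of 410 to 598 and 744 to 2691, macrophage sums of 874 to 5452 and 3186 to 14257). None of these marker genes was at 0 throughout a genotype. The part of these lists in the values of the 10 genes was not tested.

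The 10 genes did not vary as 1 unit among the BRAF and BRAF/PI3K libraries. Of 45 pairs, 26 had a positive Pearson correlation over the 14 libraries, with a median r of 0.09 (range -0.60 to 0.87), where 49.8% of all pairs of the 17558 genes were positive and the median was 0.00. Only *Phgdh* and *Mthfd2* passed a Benjamini-Hochberg adjusted p under 0.05 over the 45 pairs (r = 0.87, permutation p = 0.00024, adjusted p = 0.0108), and 0.125% of all gene pairs had an r at least as high. Spearman's rho was 0.73 (permutation p = 0.00382, adjusted p = 0.0859). The correlation was 0.84 within BRAF (n = 6), 0.88 within BRAF/PI3K (n = 8), 0.76 over the 11 libraries without 2 weeks and 0.83 without the 2 libraries farthest from the *Phgdh* median. In the PGC1a table the same pair had an r of 0.16 over 9 libraries (exact permutation p = 0.734, rho 0.48).

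**Figure D4:**
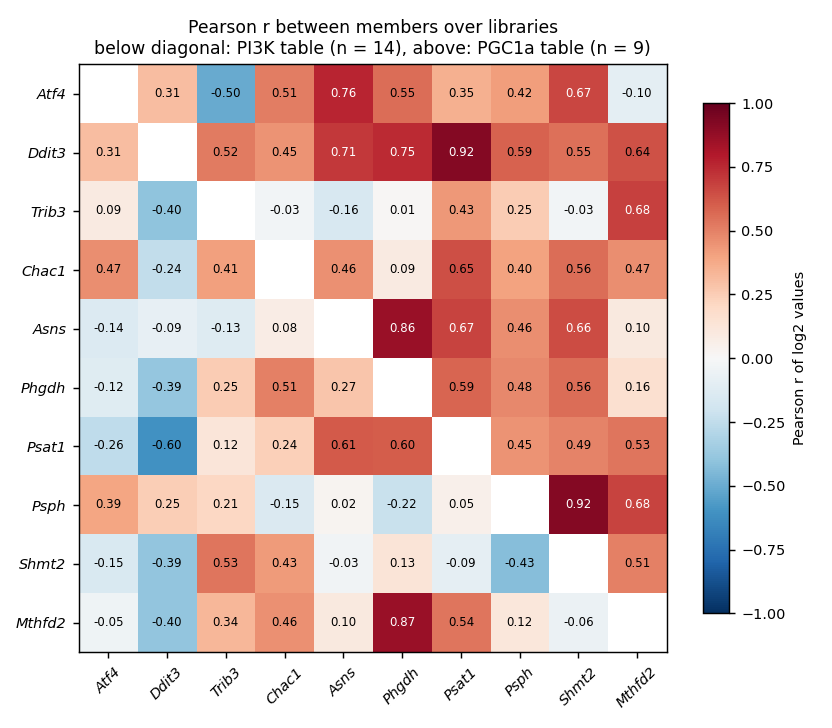
Pearson correlation of each pair of the 10 genes over libraries, on log2(normalized count + 1). Squares below the diagonal are the 14 BRAF and BRAF/PI3K libraries and squares above it the 9 PGC1a libraries. Red is positive and blue negative, and 26 of 45 pairs are positive below the diagonal against 40 of 45 above it.

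Over the 9 PGC1a libraries, 40 of 45 pairs were positive, with a median r of 0.51, where 49.5% of all pairs of the 17424 genes were positive and the median was -0.01. The pairs share genes and libraries, so they are not independent. The share of a library's summed normalized counts taken by its most abundant gene was higher where the 10 genes were low. It was 12.96% and 14.4% in Null replicates 4 and 1 and 10.3% and 6.35% in Het replicates 1 and 5, the 4 libraries in which the mean z score of the 10 genes (each gene's log2 level in units of its own SD from its mean) was negative, and 3.98% to 4.61% in the 5 libraries in which it was positive. Its part in these correlations was not tested. After adjustment over the 45 pairs, 3 passed by r and 2 of these also by rho. The lowest r of these 3 was 0.71, which 6.4% of all gene pairs reached. *Psph* and *Shmt2* had an r of 0.92 and a rho of 0.97 (exact permutation, adjusted p = 0.0109 and 0.00372). *Ddit3* and *Psat1* had an r of 0.92 and a rho of 0.97 (exact permutation, adjusted p = 0.0307 and 0.00372). *Ddit3* and *Asns* had an r of 0.71 and a rho of 0.83 (exact permutation, adjusted p = 0.0484 and 0.0930). Without the 2 libraries farthest from the median of the first gene, r was 0.84, 0.83 and 0.70 for these pairs. Each genotype has fewer than 6 libraries in that table, so no value within a genotype was computed.

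These pairs had other values in the PI3K table. *Ddit3* and *Psat1* had an r of -0.60 over the 14 BRAF and BRAF/PI3K libraries (permutation p = 0.0208, adjusted p = 0.234) and -0.32 over the 11 without 2 weeks. *Psph* and *Shmt2* had an r of -0.43 there (permutation p = 0.128, adjusted p = 0.448). *Atf4* and *Ddit3* had an r of -0.88 within BRAF (n = 6) and 0.83 within BRAF/PI3K (n = 8), with 0.31 over both (permutation p = 0.285). No test was made of a difference between tables or genotypes in these correlations.

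**Figure D5:**
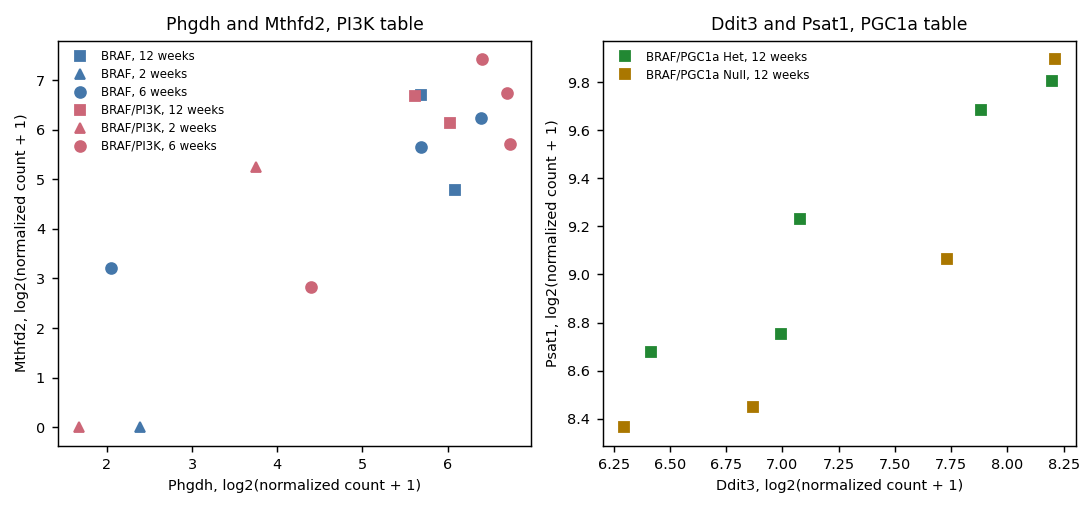
Log2(normalized count + 1) of *Phgdh* against *Mthfd2* in the 14 BRAF and BRAF/PI3K libraries (left) and of *Ddit3* against *Psat1* in the 9 PGC1a libraries (right). Each point is 1 library, with color for genotype and shape for week. On the left the r is 0.87, with 2 of the 3 libraries at 2 weeks at 0 for *Mthfd2*, and on the right the r is 0.92.

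The mean z score of the 10 genes was lowest in the 3 libraries at 2 weeks of the PI3K table (-0.89, -0.46 and -0.47) and highest in BRAF 12 weeks replicate 2 (0.66). In the PGC1a table it ran from -1.03 (Null replicate 4) to 0.82 (Het replicate 3). The mean z score was compared with the levels of 8789 genes with a mean of at least 100 in both tables. Those that followed it most closely in both included *Hsp90b1*, an endoplasmic reticulum chaperone (r of 0.89 over 14 libraries and 0.87 over 9). Others were *Pfn1*, an actin binding protein (0.84 and 0.86), *Pigs*, an enzyme subunit of membrane anchoring (0.83 and 0.91), and *Naa50*, an acetyltransferase (0.82 and 0.90). These values are descriptions chosen from many genes and carry no test.

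Other genes of the pathway were read from 7 lists, and 0 genes of any list passed an adjusted p under 0.05 in any comparison. Between 6 and 2 weeks, 2 of 19 other ATF4 targets tested were higher at an unadjusted p under 0.05, *Atf3*, a stress transcription factor (2.27 ± 0.52, SE, limma, adjusted p = 0.177), and *Pck2*, the mitochondrial form of a gluconeogenic enzyme (0.66 ± 0.29). Of 20 other one-carbon and serine genes, 2 were higher, the serine carrier *Sfxn1* (1.23 ± 0.43) and *Mthfd2l*, a relative of *Mthfd2* (0.96 ± 0.28), and 1 was lower, the purine enzyme *Gart* (-0.96 ± 0.37). Of 14 genes of eIF2 and its regulation, *Ppp1r15b* and *Eif2b1* were higher (0.69 ± 0.24 and 0.72 ± 0.30). Of 12 amino acid transporters, *Slc7a5*, a carrier of large neutral amino acids, was higher (0.90 ± 0.36). Of 11 mTORC1 components, *Mtor* was higher (0.90 ± 0.30) and *Rptor* lower (-0.93 ± 0.33). None of the 20 cytosolic tRNA synthetases or the 10 mitochondrial chaperones and proteases had an unadjusted p under 0.05 there. These counts stand beside 5.89% of all genes higher and 4.47% lower, and most are near that background.

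With PI3K and all weeks together, 2 of the 20 tRNA synthetases were higher at an unadjusted p under 0.05. *Aars*, for alanine, had a log2 difference of 1.18 ± 0.33 (SE, limma, unadjusted p = 0.00256, adjusted p = 0.409), and *Gars*, for glycine, 0.45 ± 0.19. At 6 weeks *Aars* had 1.73 ± 0.42. The amino acid transporter subunit *Slc3a2* was higher (0.48 ± 0.20), and the cytosolic serine hydroxymethyltransferase *Shmt1* was lower (-0.75 ± 0.34). Of the 10 mitochondrial chaperones and proteases, *Hspd1* and *Hspe1*, the mitochondrial chaperonin pair, were lower (-0.55 ± 0.19 and -0.63 ± 0.27). Of all 17558 genes, 607 were higher and 593 lower at an unadjusted p under 0.05 (6.83% together), and 11 of the 20 synthetases had a negative difference (median -0.08). The eIF2, ATF4 target and mTORC1 lists had 0 genes at an unadjusted p under 0.05 in this comparison. Endothelial, macrophage, AT2 and erythroid markers moved in it as given above, and their part in these values was not tested.

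By week, the difference with PI3K at 2 weeks had an unadjusted p under 0.05 for *Ppp1r15a*, a phosphatase subunit induced by ATF4 signalling (2.33 ± 0.94), for *Mthfd1l* (2.01 ± 0.76), *Sfxn1* (-2.39 ± 0.73) and *Atic* (-1.07 ± 0.46) of the one-carbon list, for *Slc7a5* (-1.87 ± 0.61), *Nars* (0.68 ± 0.30) and *Tbc1d7* (2.07 ± 0.79). These were 1 of 14 eIF2 genes, 3 of 20 one-carbon genes, 1 of 12 transporters, 1 of 20 synthetases and 1 of 11 mTORC1 genes, beside 6.93% of all genes higher and 6.57% lower, and all rest on the 1 BRAF library. At 6 weeks *Tyms* was lower (-0.97 ± 0.36) and *Gars* higher (0.63 ± 0.27), and at 12 weeks *Yars* (-0.84 ± 0.34) and *Hspd1* (-0.81 ± 0.34) were lower, where 4.24% and 3.76% of all genes had an unadjusted p under 0.05. Between 12 and 6 weeks *Slc7a5* was higher (1.35 ± 0.31, limma, unadjusted p = 0.000928, adjusted p = 0.693), and so was *Hspa9* (0.50 ± 0.20), where 5.99% of all genes had an unadjusted p under 0.05. In the PGC1a Null comparison 0 genes of the 7 lists, of 10 to 20 genes each, had an unadjusted p under 0.05, where 3.83% of all genes did.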

How the data were processed

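RNA was measured in 23 libraries, grouped by the submitters' labels. The authors ran Salmon and then DESeq2 normalization, at default settings in Galaxy, and the deposited signal is the resulting normalized count per gene (GRCm38, by the submitters' processing notes). Tool versions are not given in the sources used here, nor is strandedness. Tables of the authors' own fold changes and p-values were not used. Depth in reads is unknown, so the precision is that of the spread between libraries, which the study's methods describe as separate mice.

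The 10 genes and all lists were chosen with earlier results of these data known. The test was limma 3.58.1 with a trend, two-sided, under R 4.3.3. It was applied to log2(normalized count + 1), leaving out genes whose mean was below 10, with Benjamini-Hochberg adjustment over every gene kept and a threshold of 0.05. Genotype was the factor for pooled weeks and for PGC1a, and a mean per genotype and week for the rest, so that groups of 1 library take the spread of the others. The scripts were tested on simulated data. Exact permutations used 3003 splits for PI3K and 126 for PGC1a, where the smallest possible p is 0.00794, and correlations 100000 permutations or all of them. Pathway genes were named where they passed the threshold, or as at most the 2 highest and 2 lowest with an unadjusted p under 0.05. The alternatives were 4 added in place of 1, a mean over 40, no filter, quantile normalization, equal sums, sex, week or endothelial markers in the fit, a replicate block and leaving out libraries. Leaving out the 12 week BRAF/PI3K or all 2 week libraries, and crossed blocks, were chosen after seeing the data. Some genes that these rules name are not reported here.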

Additional observations from a re-analysis of the deposited data

Results flagged for a closer look

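Among 50 combinations of a gene and a group of 4 to 8 libraries, 4 had a library whose gap to the nearest other took an unusually large share of the group's range on the log2 scale (Dixon's 95% value). Chance gives about 1 in 20. In BRAF/PI3K 6 weeks replicate 1, *Phgdh* had 20 normalized counts where the next of the 4 libraries had 83.4, and *Psat1* had 187 where the next had 792. The same library held the highest *Chac1* and *Atf4* values of its group. In BRAF 2 weeks replicate 1, *Chac1* had 1.15 where the next of the 6 BRAF libraries had 24.8. It is the only one of these at 2 weeks, so this value restates the difference between weeks, and the chance rate does not apply to it. In BRAF/PGC1a Het 12 weeks replicate 1, *Shmt2* had 86.6 where the next of the 5 libraries had 177. No difference in the PI3K effect between weeks passed an adjusted p under 0.05 in any of the 10 genes.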

How the results depend on the processing

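No alternative called any of the 10 genes, except that *Chac1* passed between 6 and 2 weeks with endothelial markers in the fit (1 of 10, log2 difference 3.17, adjusted p = 0.0196 by limma) and without BRAF/PI3K 6 weeks replicate 1 (leaving out 1 library gave 0 to 1 of 10). Direction was followed for all 10 genes in pooled PI3K, 6 against 2 weeks and PGC1a, and for *Asns* alone in the other comparisons. Of 326 such values under other settings, 309 kept direction and call and 16 turned direction. Of 442 such values with 1 library left out, 405 kept direction and call and 36 turned direction. The causes were not tested.

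Counts over all genes moved more. With 4 added, 7 (pooled weeks), 0 (2 weeks), 7 (6 weeks) and 4 (12 weeks) genes were called for PI3K, 2 between 6 and 2 weeks and 0 between 12 and 6. Without a filter these were 107 (2 weeks), 1 (6 weeks), 16 (12 weeks), 87 and 7, with 2 and 44 for the change in the PI3K difference from 6 to 12 and from 2 to 6 weeks. Quantile normalization gave 0, 7 and 4 at 2, 6 and 12 weeks, 2 between 6 and 2 weeks and 2 for the change from 6 to 12. With sex in the fit there were 0 (2 weeks), 1 (6 weeks), 2 and 1, with endothelial markers 0 (2 weeks), 10 (6 weeks) and 268 between 6 and 2 weeks, and with a mean over 40, 3 between 6 and 2 weeks. Sex in the fit was the labelled sex, which *Kdm5d* contradicted in both BRAF/PI3K libraries at 12 weeks, so values with sex are uncertain. By rho, 0 pairs passed in the PI3K table. Equal sums moved the median of all genes to 0.12 between 6 and 2 weeks.

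Same-numbered libraries did not deviate together at 6 weeks (r of -0.28 to -0.01) or with PGC1a (-0.47 to 0.21), so the replicate numbers were not taken as pairs. At 12 weeks with PI3K the r was -0.15 for the same and 0.15 for other numbers. With 2 libraries per genotype the numbering alone sets this sign, so it cannot decide the question. With the replicate block 6 (pooled), 0, 0 and 0 (2, 6 and 12 weeks) and 0 (PGC1a) genes were called, and 0 with the numbers crossed at 12 weeks. The block could not be fitted for week comparisons.

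Leaving out 1 library gave 3 to 9 genes for pooled weeks (9 without BRAF/PI3K 12 weeks replicate 1), 0 to 268 at 2 weeks and 0 to 106 between 6 and 2 weeks (both highest without BRAF/PI3K 6 weeks replicate 1, as was the 0 to 30 for the change from 2 to 6 weeks), 1 to 12 at 6 weeks (12 without BRAF 12 weeks replicate 1), 2 to 4 at 12 weeks, 0 to 2 between 12 and 6 weeks, and 0 to 1 for the change from 6 to 12 weeks. The BRAF library at 2 weeks is the only one of its group, so without it the genotypes cannot be compared at 2 weeks, nor 6 with 2 weeks over both genotypes.

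Among the values followed, those that turned direction were as follows. For pooled PI3K, *Atf4* was at 0.0221 with equal sums, 0.0804 with sex, 0.0002 with the replicate block and 0.0532 without both 12 week BRAF/PI3K libraries. *Psph* was at 0.0173 with equal sums, 0.0269 with endothelial markers and 0.0062 without both libraries, and *Shmt2* at -0.0654 with endothelial markers. *Psph* between 6 and 2 weeks was at -0.0045 with sex, and *Asns* between 12 and 6 weeks at -0.0908 with sex and -0.11 with endothelial markers. With endothelial markers, PGC1a Null turned *Ddit3* to 1.28, *Phgdh* to 0.58, *Psat1* to 0.47, *Psph* to 1.21 and *Shmt2* to 0.24, but the mean log2 level of these markers did not overlap between Het (4.35 to 6.04) and Null (6.56 to 7.04), so marker level and genotype can hardly be separated in that fit. With 1 library left out, pooled PI3K gave -0.15 to 0.0911 for *Atf4*, -0.20 to 0.89 for *Chac1*, -0.0855 to 0.94 for *Phgdh*, -0.25 to 0.10 for *Psph*, -0.033 to 0.34 for *Shmt2* and -0.22 to 1.39 for *Mthfd2*. *Asns* ranged from -0.21 to 0.44 for PI3K at 6 weeks, -0.0085 to 0.31 between 6 and 2 weeks and -0.34 to 0.39 between 12 and 6 weeks, and *Psph* from -0.10 to 0.10 between 6 and 2 weeks. With PGC1a, *Ddit3* ranged from -0.35 to 0.29, *Phgdh* from -0.18 to 0.33 and *Psph* from -0.67 to 0.0065.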
